A study of Mus musculus with 9 samples.

Results

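Genes that build, coat, fill and empty the lipid droplet were followed in BV2 cells, an immortalised mouse microglial line, under oxygen-glucose deprivation (OGD) with and without the P300 acetyltransferase inhibitor A-485. The set was chosen by gene name and holds 10 of the 54532 genes in the deposited expression table: Plin2, Hilpda, G0s2, Pnpla2, Lipa, Cd36, Fabp4, Fabp5, Dgat1 and Dgat2. This set and the further lipid genes below were chosen with earlier results of these data known. Counts and medians set beside those of all genes therefore describe the chosen genes and do not test them. RNA was sequenced from 3 groups of 3 libraries, named here control (Ctrl, complete medium in normal culture), OGD (low-glucose medium with less serum in a hypoxic chamber) and OGD + A-485 (the same deprivation with the inhibitor added when deprivation began). The purpose of the series, as far as its design shows, was to compare deprived with undeprived microglial cells and deprived cells with and without the inhibitor. All libraries came from 1 cell line, the deprivation groups differed from control in glucose, oxygen and serum together, and control cells with A-485 alone are not analysed here. The labels do not say whether the 3 libraries of a group came from separate cultures, so the p-values below measure the spread between libraries, which may be technical.

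Lipid droplets are stores of neutral lipid, mainly triglycerides and sterol esters, enclosed by a single phospholipid layer that carries coat proteins. Cells take up fatty acids through receptors such as CD36, carry them in the cytosol on fatty acid binding proteins, and esterify them to triglyceride with DGAT1 or DGAT2 in the last step of synthesis. Stored triglyceride is released by the cytosolic lipase ATGL, the product of Pnpla2, while HILPDA and G0S2 inhibit that enzyme. Lipid that reaches the lysosome is hydrolysed by lysosomal acid lipase, the product of Lipa. Microglia and macrophages are known to gather lipid droplets in ageing, inflammation and low oxygen.

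The level of each gene was its FPKM, its reads scaled to gene length and to a depth divisor of the library. This divisor was above the reads on genes in every control and OGD library and below them in every library with A-485. Scaled to the reads on genes (library totals), the median log2 change of OGD + A-485 against control over all tested genes was -0.09. By the deposited divisor it was 0.02. Each library held between 12593250 and 16091038 reads on genes. By the deposited divisors, 1 read on a gene of 1 kb was worth between 0.0618 and 0.0786 FPKM. Of 12 microglia and macrophage marker genes, 11 had a mean of at least 1 FPKM over the 9 libraries. P2ry12, a marker of resting microglia, was below it. Aif1 was under 1 FPKM in control (0.613) and OGD (0.889) and at 2.57 with A-485. The summed level of these 12 genes was 560 to 580 FPKM in control, 671 to 703 in OGD, and 1246 to 1286 when A-485 was added. The most abundant genes weigh most in this sum, with Cd68 at 277, 306 and 445 FPKM in the same order. Not every gene followed it. Tmem119 was at 1.40, 1.34 and 1.33, and Spi1 at 43.9, 38.5 and 97.9. No gene of the lists for adipocytes (6 genes), astrocytes (4), neurons (4), oligodendrocytes (4), endothelial cells (4) and hepatocytes (3) had a mean of 1 FPKM over the 9 libraries. The myelin gene Mbp of the oligodendrocyte list came nearest, with group means of 1.04 FPKM in control, 1.10 in OGD, and 0.737 with A-485. The adipocyte list, which matters most for these genes, summed to between 0.173 and 0.591 FPKM in every library, and Lep, Cidec and Adrb3 were at 0 in all 9 libraries. Mitochondrial genes took between 1.82% and 2.20% of control reads, between 1.14% and 1.28% of OGD reads, and between 1.66% and 2.01% of reads with A-485, and the part of these shifts in the results below was not tested.

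Of the 10 genes, 9 passed the filter of a mean of at least 0.2 FPKM, and G0s2 did not. Comparisons were made with limma on log2(FPKM + 0.1) across 16123 genes. Calls used the limits of the study, an unadjusted p-value under 0.01 together with an absolute log2 fold change above 0.5. Adjusted p-values are Benjamini-Hochberg values over all 16123 genes. Folds are ratios of mean FPKM, and log2 fold changes are on the log2(FPKM + 0.1) scale. OGD against control and OGD + A-485 against OGD use the same OGD libraries, so their changes are not independent of each other.

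In OGD, 2 of the 9 tested genes were called higher than in control, Hilpda and Fabp4, beside 11.2% of all tested genes, and 0 were called lower, beside 9.81%. Another 5 genes had an adjusted limma p-value under 0.05 with a smaller change, namely Plin2 on the higher side and Lipa, Fabp5, Dgat1 and Dgat2 on the lower. The share of all tested genes with such values was not counted, so these 5 describe single genes and not the set. The 3 OGD libraries lay wholly above control for 3 genes and wholly below for 4, where 28.0% and 27.5% of all tested genes did so. The median log2 fold change of the 9 genes was -0.01, and that of all tested genes was 0.01. With A-485 added, 4 genes were called higher than in OGD alone, Cd36, Plin2, Lipa and Pnpla2, beside 12.2% of all tested genes, and 0 lower, beside 13.4%. The libraries with A-485 lay wholly above OGD for 6 genes and wholly below for 2, against 28.5% and 28.3% of all tested genes. The median change of the 9 genes was 0.49 on the log2 scale, and that of all tested genes 0.01. Different members therefore made up the calls of the first and second comparison, and no gene was called in both. Lipa, at -0.49 in OGD, was at the edge of the fold limit and was called in both under some alternatives given below.

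**Figure D1:**
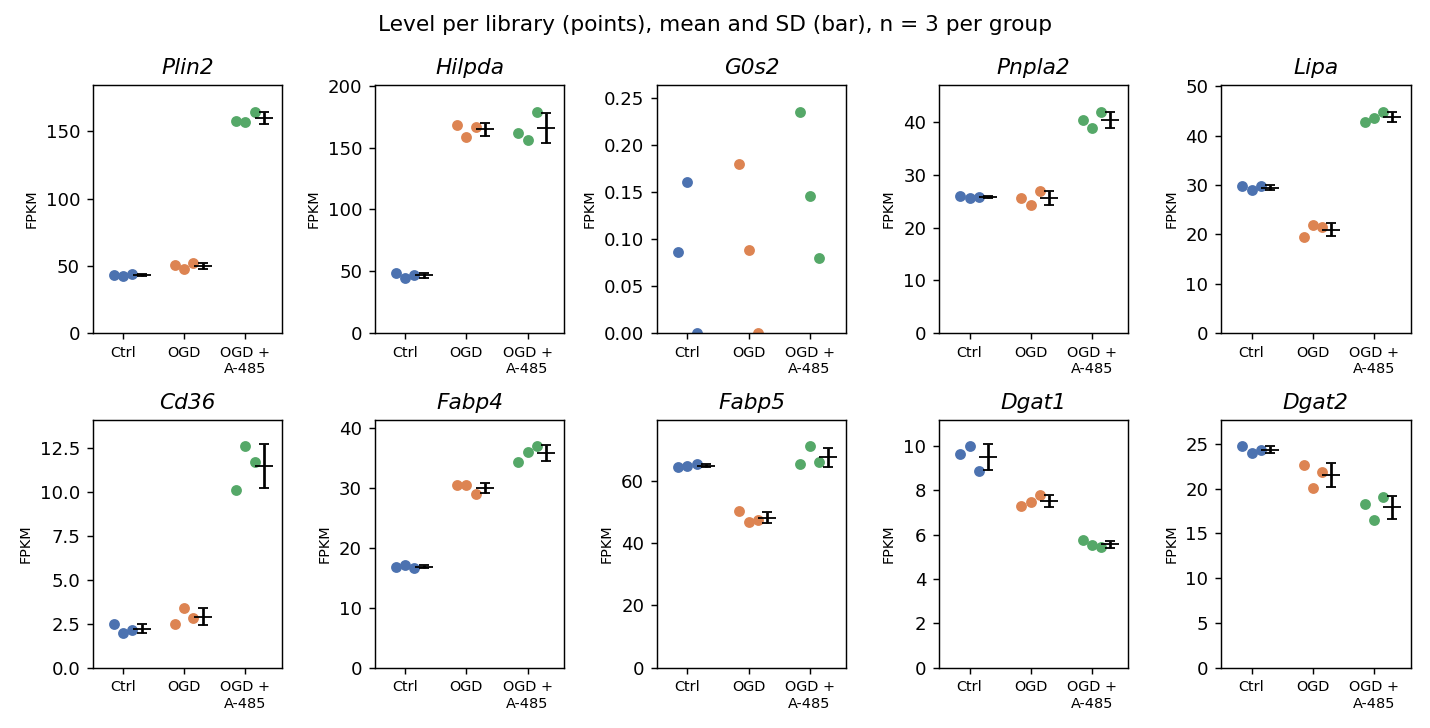
FPKM of each of the 10 genes in every library (points; y axis from 0, scaled separately for each gene), with the mean and SD of the 3 libraries of a group beside them except for G0s2. Hilpda stepped up between control and OGD, and Plin2, Cd36, Lipa and Pnpla2 between OGD and OGD + A-485. The libraries of Dgat1 and Dgat2 were lower at each step, while G0s2 rested on 0 to 3 reads per library.

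Hilpda (ENSMUSG00000043421, GRCm38 chromosome 6, 29272488 to 29275446, plus strand) encodes a small droplet protein that is induced in low oxygen and inhibits ATGL. It was read at 48.7, 44.5 and 46.9 FPKM in the control libraries, 169, 159 and 167 in OGD, and 162, 157 and 179 in OGD + A-485. Control stood far below both deprived groups, whose libraries overlapped. Hilpda was 3.53-fold higher in OGD than in control (log2 fold change 1.82, SE 0.06, limma adjusted p = 2.39e-07). Between OGD and OGD + A-485 the log2 difference was 0.01, with a 95% interval of -0.12 to 0.14 and a limma adjusted p of 0.931, so a difference larger than that interval was not detected. Fewer cells of a type and less RNA per cell cannot be told apart in RNA from whole cultures, here or for the genes that follow.

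The hypoxia-inducible factors bind a short core written ACGTG or GCGTG, and the windows of Hilpda that hold it are printed because this gene had the largest rise of the set in OGD. The sequences are RefSeq's for GRCm38.p6, read 5′ to 3′ on the plus strand, with the core in capitals.
Hilpda, chr6:29272571-29272600, bases -55 to -26 from the start at 29272626: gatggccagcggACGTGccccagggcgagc
Hilpda, chr6:29272606-29272635, bases -20 to 10 from the same start: caggttcggtacGCGTGcgcagtctccgag
A further GCGTG stood at -111 to -107 from the same start, which is 28 to 32 counted from a second RefSeq start of Hilpda at 29272488. Searched on both strands in windows from 250 bases before to 50 after each RefSeq start, ACGTG was found in 19.6% of 32851 promoters, GCGTG in 32.4%, and at least 1 of them in 43.8%. The core is thus common, and a match describes letters in a window, not binding. Promoters were matched for 6 of the 10 genes, and 3 of those 6, Hilpda, Plin2 and G0s2, held a core. The windows of Cd36, Pnpla2 and Lipa held neither form, and Fabp4, Fabp5, Dgat1 and Dgat2 were not matched.

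Plin2 (ENSMUSG00000028494, chromosome 4, 86648386 to 86670060, minus strand) encodes perilipin 2, the main droplet coat protein outside fat tissue. Its levels were 43.4, 42.1 and 43.6 FPKM in control, 50.4, 47.5 and 51.8 in OGD, and 158, 157 and 165 in OGD + A-485. The 3 groups did not overlap, and the step from OGD to OGD + A-485 was by far the wider. Plin2 was 1.16-fold above control in OGD (log2 fold change 0.21, SE 0.04, limma adjusted p = 0.00244), which was short of the fold limit and not called. It rose 3.20-fold from OGD to OGD + A-485 (log2 fold change 1.68, SE 0.04, limma adjusted p = 2.51e-08) and was 3.72-fold above control there. Plin2 and Hilpda, both of which belong to the droplet surface, therefore changed at different steps. The ratio of Plin2 to Hilpda FPKM within a library was 0.921 ± 0.0281 in control, 0.303 ± 0.00687 in OGD, and 0.967 ± 0.0434 with A-485 (SD, n = 3).

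The promoter of Plin2 is printed beside those of Hilpda because it also holds the core, yet the gene was not called in OGD. The sequence is RefSeq's for GRCm38.p6, minus strand, 5′ to 3′, and the capitals mark CACGC, which is GCGTG on the opposite strand, and CACGTG, a palindrome that contains ACGTG on both strands.
Plin2, chr4:86670058-86670159, bases -100 to 2 from the start at 86670059: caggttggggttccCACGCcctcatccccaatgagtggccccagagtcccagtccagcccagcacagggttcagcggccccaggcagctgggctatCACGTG
The palindrome CACGTG was found in 7.15% of the 32851 promoters.

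G0s2 (ENSMUSG00000009633, chromosome 1, 193272161 to 193273217, minus strand), the other ATGL inhibitor of the set, was at the limit of detection. Its reads numbered 1, 2 and 0 in the control libraries, 2, 1 and 0 in OGD, and 3, 2 and 1 in OGD + A-485. The groups overlapped, and no level above the floor of 3 reads was seen in any library, so no fold is given. G0s2 lies within Lamb3 on the opposite strand, a laminin gene with at most 50 reads, and reads of the 2 genes cannot be told apart without strand. Of the ATGL inhibitors in the set, Hilpda alone was above that floor.

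Pnpla2 (ENSMUSG00000025509, chromosome 7, 141455198 to 141460743, plus strand) encodes ATGL, which starts the breakdown of stored triglyceride. Its levels were 26.0, 25.6 and 25.7 FPKM in control, 25.6, 24.3 and 27.0 in OGD, and 40.4, 38.9 and 42.1 in OGD + A-485. The control and OGD libraries overlapped, and those with A-485 were all above them. The log2 difference between OGD and control was -0.01, with a 95% interval of -0.12 to 0.09 (limma adjusted p = 0.881). Pnpla2 rose 1.58-fold with A-485 against OGD (log2 fold change 0.66, SE 0.05, limma adjusted p = 5.63e-06). The median of the 50 nearest tested genes on the chromosome was 0.12 higher on the log2 scale in that comparison and 0.25 higher against control. With that local median removed, the difference of Pnpla2 against control was 0.40 in place of 0.65 and no longer called.

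The balance of inhibitor to lipase RNA was described as the summed FPKM of Hilpda and G0s2 over that of Pnpla2. This ratio was 1.82 ± 0.0645 in control, 6.44 ± 0.230 in OGD, and 4.10 ± 0.144 with A-485 (SD, n = 3). The groups did not overlap, with 1.75 to 1.88 in control, 6.18 to 6.60 in OGD, and 4.01 to 4.27 with A-485. Between control and OGD the called gene of the ratio was Hilpda, and between OGD and OGD + A-485 it was Pnpla2. These are levels of RNA, and the amount or activity of the lipase was not measured.

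**Figure D2:**
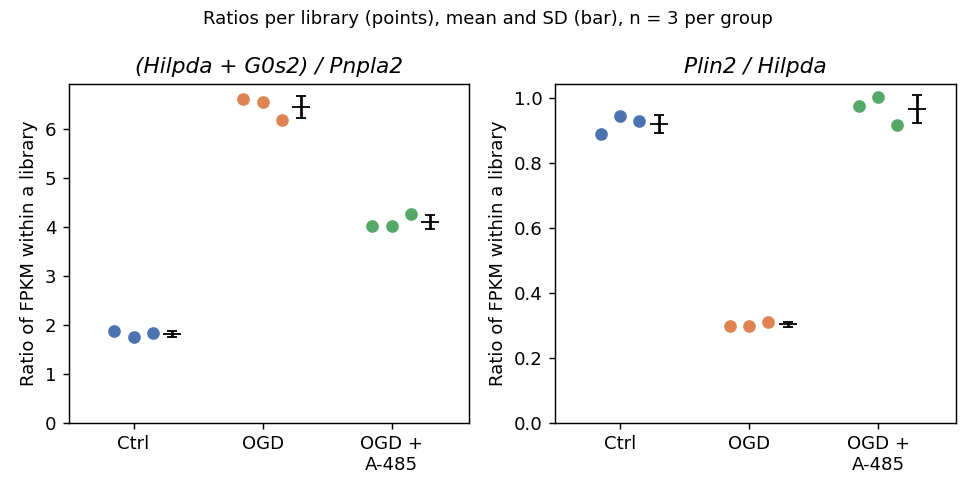
Ratios of FPKM within a library (points; y axes from 0), with the mean and SD of 3 libraries per group. Inhibitor over lipase was highest in OGD (6.44) and intermediate with A-485 (4.10), whereas Plin2 over Hilpda was lowest in OGD (0.303) and overlapped between control and OGD + A-485.

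Lipa (ENSMUSG00000024781, chromosome 19, 34492318 to 34527474, minus strand) acts on lipid in the lysosome. Its levels were 29.7, 28.9 and 29.7 FPKM in control, 19.5, 22.0 and 21.4 in OGD, and 42.9, 43.6 and 44.9 in OGD + A-485. The 3 groups were apart, with OGD lowest and OGD + A-485 highest. In OGD the log2 fold change was -0.49 (SE 0.05, limma adjusted p = 5.11e-05), at the edge of the fold limit and not called. Leaving out Ctrl replicate 2, OGD replicate 2 or OGD replicate 3 carried it past that limit, to between -0.53 and -0.51. Lipa rose 2.09-fold with A-485 against OGD (log2 fold change 1.06, SE 0.05, limma adjusted p = 4.79e-07) and was 1.49-fold above control (log2 fold change 0.57, limma adjusted p = 1.02e-05). The last call was lost on other scalings, at 0.47 with the neighbouring genes removed, 0.49 by quantile normalization and 0.46 on library totals. The genes of the cytosolic and the lysosomal lipase were both called higher with A-485 against OGD.

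Cd36 (ENSMUSG00000002944, chromosome 5, 17781690 to 17888801, minus strand) encodes a scavenger receptor that takes up long-chain fatty acids and oxidised lipoproteins. Its levels were 2.50, 1.99 and 2.17 FPKM in control, 2.49, 3.42 and 2.81 in OGD, and 10.1, 12.6 and 11.7 in OGD + A-485. Control and OGD overlapped at their edges, and every library with A-485 was well above both. The change in OGD was 0.37 on the log2 scale (SE 0.14, limma adjusted p = 0.0526) and was not called. With A-485 the gene rose 3.94-fold over OGD (log2 fold change 1.95, SE 0.14, limma adjusted p = 5.23e-06) and 5.16-fold over control (log2 fold change 2.32), which were the largest changes of the set in those comparisons. Cd36 had the lowest mean over all libraries of the 9 tested genes, with 102 to 160 reads per library without A-485, and its SE was also the largest. The summed macrophage marker list, in which the most abundant genes weigh most, was also highest in the libraries with A-485. The part of that shift in the rise of Cd36, Plin2, Lipa and Pnpla2 was not tested.

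Fabp4 (ENSMUSG00000062515, chromosome 3, 10204088 to 10208576, minus strand) encodes the fatty acid binding protein shared by adipocytes and macrophages. It was read at 16.7, 17.2 and 16.6 FPKM in control, 30.4, 30.4 and 29.0 in OGD, and 34.3, 36.0 and 37.0 in OGD + A-485. The groups did not overlap and were ordered control, OGD, OGD + A-485. Fabp4 rose 1.78-fold in OGD (log2 fold change 0.83, SE 0.04, limma adjusted p = 1.41e-06). The further difference with A-485 was 0.25 on the log2 scale (limma adjusted p = 0.000653) and was not called. Against control it was 2.12-fold higher with A-485 (log2 fold change 1.08, limma adjusted p = 9.33e-08). All 6 adipocyte markers had means under 0.2 FPKM in these libraries.

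Fabp5 (ENSMUSG00000027533, chromosome 3, 10012548 to 10016607, plus strand) encodes the related epidermal binding protein, which many immune cells also make. Its levels were 64.4, 64.8 and 65.4 FPKM in control, 50.3, 46.8 and 47.5 in OGD, and 65.5, 71.1 and 66.0 in OGD + A-485. OGD lay below both other groups, and the lowest library with A-485 was only just above the highest of control. The log2 fold change was -0.43 in OGD (limma adjusted p = 5.99e-05) and 0.49 for A-485 against OGD (limma adjusted p = 2.19e-05), neither of which was called. The second value passed the limit, at 0.50 to 0.52, without OGD replicate 1, OGD_A_485 replicate 1 or OGD_A_485 replicate 3. Against control the difference with A-485 was 0.06, with a 95% interval of -0.04 to 0.16 (limma adjusted p = 0.294). Fabp4 and Fabp5 are neighbours in one cluster of binding protein genes, yet in OGD the one was called higher and the other lay lower without a call. Their ratio, Fabp5 over Fabp4 FPKM, was 3.85 ± 0.0821 in control, 1.61 ± 0.0631 in OGD, and 1.89 ± 0.0956 with A-485 (SD, n = 3). Among the 50 nearest tested genes of each, the median log2 difference between OGD + A-485 and OGD was 0.32 around Fabp4 and 0.33 around Fabp5. With these local medians removed, the difference between OGD + A-485 and OGD was -0.061 for Fabp4 and 0.16 for Fabp5, the latter with a limma adjusted p of 0.186. Against control the local median around Fabp5 was 0.24, and the difference of Fabp5 without it was -0.18.

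Dgat1 (ENSMUSG00000022555, chromosome 15, 76502015 to 76511953, minus strand) and Dgat2 (ENSMUSG00000030747, chromosome 7, 99153658 to 99182719, minus strand) encode unrelated enzymes for the same last step of triglyceride synthesis. The levels of Dgat1 were 9.65, 9.99 and 8.87 FPKM in control, 7.30, 7.46 and 7.79 in OGD, and 5.76, 5.53 and 5.45 in OGD + A-485. Those of Dgat2 were 24.7, 23.9 and 24.3 in control, 22.7, 20.1 and 21.9 in OGD, and 18.2, 16.5 and 19.0 in OGD + A-485. Both genes had the order control, OGD, OGD + A-485 from high to low, with no overlap between groups. For Dgat1 the log2 fold change was -0.33 in OGD (limma adjusted p = 0.00153) and -0.42 for A-485 against OGD (limma adjusted p = 0.000313), and neither was called. Against control it fell by 0.76 on the log2 scale with A-485 (SE 0.06, limma adjusted p = 5.83e-06), which was called. Dgat2 differed by -0.18 in OGD (limma adjusted p = 0.0452), by -0.26 with A-485 against OGD (limma adjusted p = 0.00662) and by -0.44 against control (limma adjusted p = 0.000269), and none of these was called. These were the only tested genes of the set below OGD in all libraries with A-485, where the droplet coat gene Plin2 and the receptor gene Cd36 were higher. The 50 nearest tested genes of Dgat1 had a median log2 difference of -0.27 between OGD and control. With the local medians removed, the difference of Dgat1 in OGD was -0.060 in place of -0.33 (limma adjusted p = 0.611). In that setting Dgat1 passed the limits in OGD + A-485 against OGD (-0.52) and Dgat2 in OGD + A-485 against control (-0.52).

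Set against control, the combined treatment had 6 genes called higher, Cd36, Plin2, Hilpda, Fabp4, Pnpla2 and Lipa, beside 17.0% of all tested genes. A single gene, Dgat1, was called lower, beside 16.6%. The libraries lay wholly above control for 7 genes and wholly below for 2, where 31.8% and 32.0% of all tested genes did so. The median log2 fold change was 0.65 over the 9 genes and 0.02 over all tested genes. For Hilpda and Fabp4 the larger part of this difference lay between control and OGD, and for Cd36, Plin2 and Pnpla2 between OGD and OGD + A-485.

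**Figure D3:**
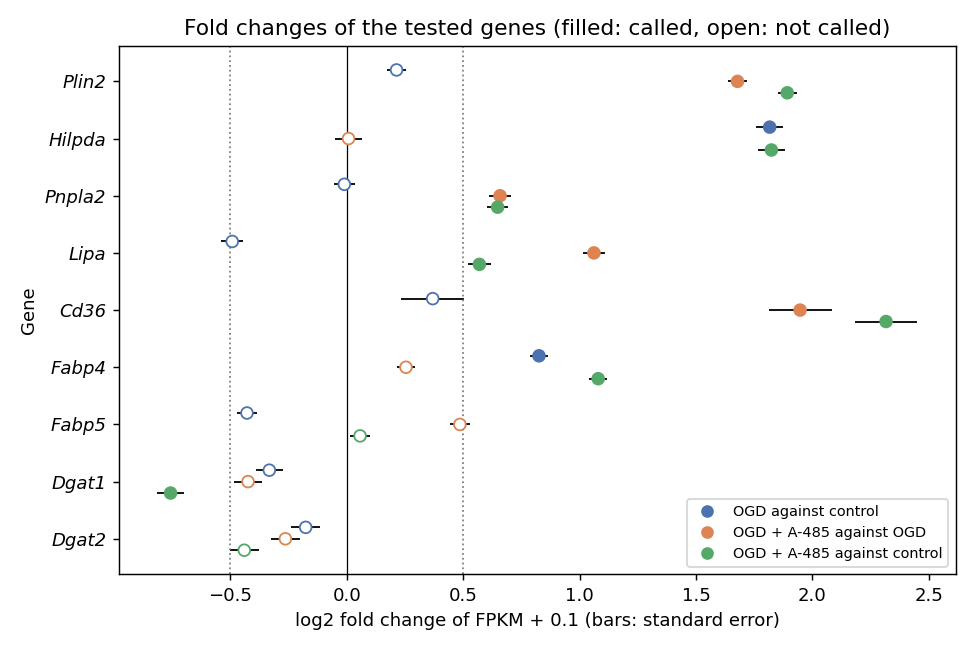
Log2 fold changes (x axis; bars, standard error) of the 9 tested genes in the 3 comparisons; filled points were called, open points were not, and dotted lines mark changes of 0.5 either way. Hilpda and Fabp4 were the genes called in OGD against control, and Cd36, Plin2, Lipa and Pnpla2 in OGD + A-485 against OGD.

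Between genes, levels per length depend on which length is used. By the deposited lengths, Fabp5 was the highest of the set in control (64.9 FPKM), and Hilpda the highest in OGD (165). With A-485 Hilpda (166) and Plin2 (159.9) were highest, and their libraries overlapped. In control Hilpda (46.7 ± 2.10) and Plin2 (43.0 ± 0.819) were the next below Fabp5, with ranges that did not overlap. The control order went on with Lipa (29.5 ± 0.463), Pnpla2 (25.8 ± 0.220), Dgat2 (24.3 ± 0.397) and Fabp4 (16.9 ± 0.295), followed by Dgat1 (9.50 ± 0.574) and Cd36 (2.22 ± 0.258; SD, n = 3), and no neighbours in this order overlapped. In OGD the libraries of Plin2 and Fabp5 (49.9 and 48.2 FPKM) overlapped, as did those of Dgat2 and Lipa (21.5 and 20.9). With A-485 Lipa (43.8) stood above Pnpla2 (40.5) and Fabp4 (35.8), and Cd36 (11.5) had passed Dgat1 (5.58). The deposited lengths were 4489 bases for Fabp4, 3567 for Fabp5 and 3512 for Plin2, whereas their longest coding transcripts in GENCODE M21 have 896, 987 and 1888. On the lengths of the longest coding transcripts, control would read 234 FPKM for Fabp5, 84.5 for Fabp4, 80.0 for Plin2 and 52.5 for Hilpda. With A-485 it would be 297 for Plin2, 244 for Fabp5 and 186 for Hilpda. The order of the genes and the size of the ratios between them therefore depend on the length, and the folds of a gene between groups do not. The rescaled values take all counted reads to lie on the longest coding transcript, which was not tested.

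Around the 10 genes, 118 other genes of lipid handling were listed by role, 115 of them in the table, and 83 were tested. In OGD 14 of the 83 (16.9%) were called higher and 12 (14.5%) lower, beside 11.2% and 9.81% of all tested genes. With A-485 against OGD 27 (32.5%) were called higher and 10 (12.05%) lower, beside 12.2% and 13.4%. Against control, 28 (33.7%) were higher and 8 (9.64%) lower with A-485, beside 17.0% and 16.6%. The same shares of all tested genes are the background for the counts of each role list, most of which are small. Their median log2 fold change was 0.01, 0.28 and 0.30 in these comparisons, against 0.01, 0.01 and 0.02 over all tested genes. The genes named below are among those with the largest changes of each role list in the first comparisons among genes of at least 1 FPKM.

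**Figure D4:**
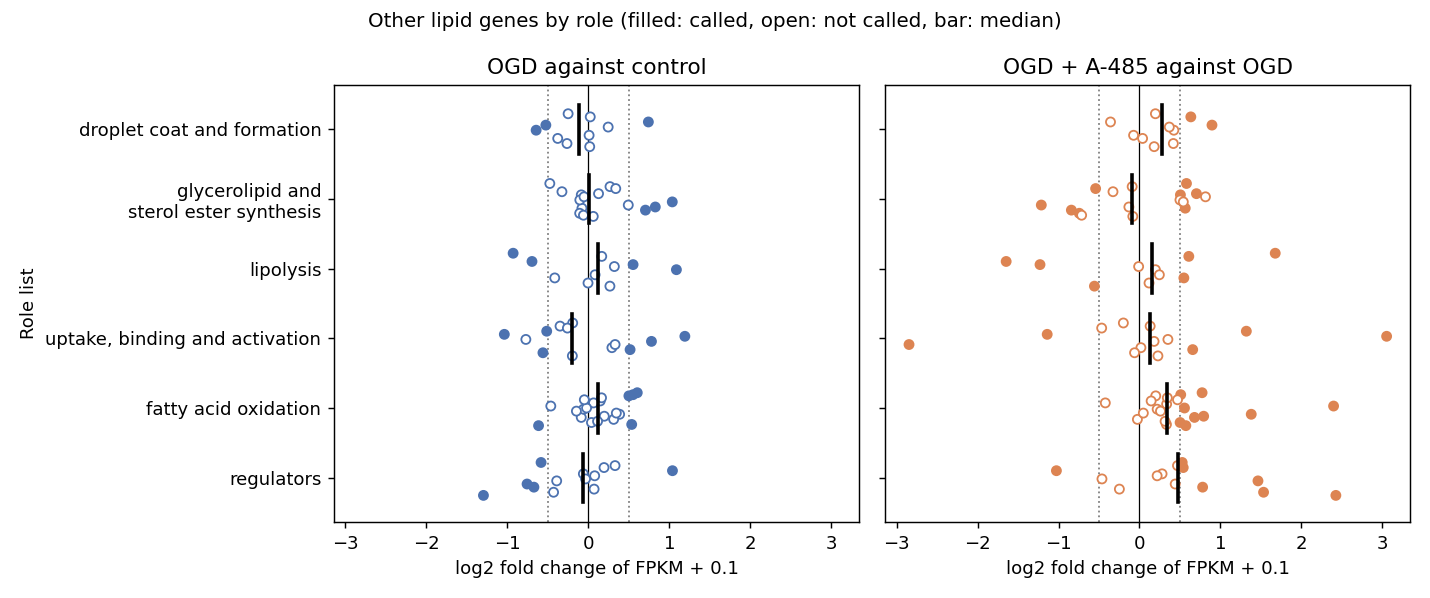
Log2 fold changes (x axis) of the 83 other lipid genes by role list, for OGD against control and for OGD + A-485 against OGD; filled points were called, and the black bar is the median of a list. Fatty acid oxidation genes had 9 of 21 called higher and 0 lower with A-485 against OGD, beside 12.2% and 13.4% of all tested genes.

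In the droplet coat and formation list of 10 tested genes, 1 was called higher and 2 lower in OGD, and 2 higher and 0 lower with A-485 against OGD. Plin3, a coat protein that moves between cytosol and droplet, rose from 36.9 ± 1.79 to 61.8 ± 3.01 FPKM in OGD (log2 fold change 0.74, limma adjusted p = 7.02e-06) and was at 48.2 ± 1.36 with A-485. Plin2, of the same family, was called at the step from OGD to OGD + A-485. Bscl2, which encodes seipin, needed for droplet formation, fell from 1.69 ± 0.138 to 1.15 ± 0.132 in OGD and rose to 2.22 ± 0.192 with A-485 (log2 fold changes -0.52 and 0.90). Ldah, a droplet-associated hydrolase, fell by 0.64 on the log2 scale in OGD, and Hsd17b11, a droplet-bound dehydrogenase, rose by 0.63 with A-485 against OGD.

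The list of glycerolipid and sterol ester synthesis had 16 tested genes, with 3 called higher and 0 lower in OGD, and 4 higher and 4 lower with A-485 against OGD. Lpin1, which makes the diacylglycerol that DGAT enzymes use, rose in OGD from 2.86 ± 0.122 to 4.73 ± 0.297 FPKM and fell to 2.59 ± 0.0848 with A-485 (log2 fold changes 0.71 and -0.84, limma adjusted p = 8.60e-05 and 2.34e-05). Gpat3, which acts at the first step of the same route, fell by 1.21 on the log2 scale with A-485 against OGD, from 3.10 ± 0.431 to 1.29 ± 0.254 FPKM. Both enzymes act before the DGAT step, whose genes were not called in this comparison. Other genes of the list, named after their values were seen, were called in both directions there. Gpat4 rose from 12.1 to 18.2 FPKM (log2 fold change 0.58), and Agpat3 (0.57), Agpat2 (0.51) and Soat1 were also higher. Gk (-0.74) and Lpin2 (-0.54) were called lower with Lpin1 and Gpat3. Soat2, a sterol ester synthase, rose in OGD (log2 fold change 0.83), as did Mogat1, a monoacylglycerol acyltransferase (1.04), which had 10 to 58 reads per library. Both were not called with A-485 against OGD (-0.13 and 0.54). Soat1, the relative of Soat2, was called higher in that comparison. It rose from 34.6 ± 0.662 to 56.3 ± 0.795 FPKM (log2 fold change 0.70, limma adjusted p = 8.45e-07).

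Of 10 tested lipolysis genes, 2 were called higher and 2 lower in OGD, beside 11.2% and 9.81% of all tested genes, and 3 higher and 3 lower with A-485 against OGD, beside 12.2% and 13.4%. Nceh1, which hydrolyses sterol esters, had the pattern of Lipa with larger changes, at 9.95 ± 0.812 FPKM in control, 5.17 ± 0.201 in OGD, and 16.7 ± 0.549 with A-485 (log2 fold changes -0.93 and 1.68, both called). Lipg, the endothelial lipase gene, fell at both steps, by 0.70 and by 1.65 on the log2 scale. Lipc, the hepatic lipase gene, rose in OGD from 0.665 ± 0.120 to 1.52 ± 0.231 FPKM. Abhd5, whose product activates ATGL, was chosen after its values were seen and fell with A-485 from 7.61 ± 0.250 to 5.14 ± 0.221 FPKM (log2 fold change -0.56, limma adjusted p = 5.22e-05). The lipase gene Pnpla2 and the gene of its activator thus went opposite ways with A-485.

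Among 13 tested genes of uptake, binding and activation, 3 were called higher and 3 lower in OGD, and 3 higher and 2 lower with A-485 against OGD. Msr1, a scavenger receptor like Cd36, rose at both steps, with 0.377 ± 0.0419 FPKM in control, 0.995 ± 0.158 in OGD, and 8.94 ± 0.725 with A-485 (log2 fold changes 1.19 and 3.05, limma adjusted p = 0.000145 and 5.03e-07). It had 34 to 35 reads per library in control and 71 to 97 in OGD. Its mean passed the naming limit of 1 FPKM only through the libraries with A-485. Ffar4, a receptor for long-chain fatty acids, fell by 2.85 on the log2 scale with A-485 against OGD, from 14.0 ± 0.828 to 1.86 ± 0.0976 FPKM. Acsl3, which activates fatty acids at the droplet and the endoplasmic reticulum, fell at both steps, from 17.5 ± 0.0423 to 8.49 ± 0.238 and 3.81 ± 0.291 FPKM. Receptors for lipid thus moved in both directions with A-485.

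The fatty acid oxidation list had 21 tested genes, with 4 called higher and 1 lower in OGD, 9 higher and 0 lower with A-485 against OGD, and 11 higher and 0 lower with A-485 against control. Its median log2 fold change was 0.11, 0.34 and 0.51 in these comparisons. Cpt1a, which brings fatty acids into mitochondria, rose from 3.05 ± 0.436 FPKM in OGD to 16.4 ± 0.230 with A-485 (log2 fold change 2.40, SE 0.09, limma adjusted p = 1.97e-07), after a value of -0.46 in OGD that was not called. Acot2, a mitochondrial thioesterase, rose by 1.38 on the log2 scale with A-485 against OGD, while Acaa1a, a peroxisomal thiolase, fell by 0.61 in OGD and rose by 0.57 with A-485.

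Of 13 tested regulators, 1 was called higher and 4 lower in OGD, and 6 higher and 1 lower with A-485 against OGD. Ppard, a nuclear receptor for fatty acids, rose from 10.6 ± 0.673 to 22.0 ± 1.13 FPKM in OGD and returned to 10.8 ± 1.08 with A-485 (log2 fold changes 1.04 and -1.03). Its relatives were scarcely read, with Ppara at 0 reads in all libraries and Pparg at 0 to 9, both named after their values were seen. A count under the floor of 3 reads does not show that a gene is absent. Cebpa, a myeloid and adipocyte transcription factor, fell by 1.30 in OGD and rose by 2.43 with A-485 (SE 0.32 for each). Its levels were 3.05 ± 0.453 FPKM in control, 1.28 ± 0.583 in OGD, and 6.80 ± 1.04 with A-485. The OGD level, used in both changes, rested on 21 to 63 reads per library. Nr1h3, which encodes the sterol-sensing receptor LXR alpha, rose by 1.53 with A-485 against OGD, from 1.13 ± 0.353 to 3.36 ± 0.140 FPKM.

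By the calls above, no gene of the set was called in both of the first comparisons, so the fixed rule named no genes of most similar pattern. Those of Hilpda and Plin2 were added after their values were seen, by the root mean square difference of centred log2 levels over the 9 libraries among 11897 genes. For Hilpda they were Ankrd37 (0.113), Gys1 (0.124) and Mturn (0.134), and for Plin2 the nearest were Ppm1h (0.0562) and Psap (0.0812). Gys1 had means of 20.2, 63.4 and 73.7 FPKM in the order control, OGD, OGD + A-485, and Psap had 227, 276 and 779.8.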

How the data were processed

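Per the labels, 9 BV2 libraries fall into 3 groups of 3. According to the study's methods, reads were counted on genes with featureCounts, and the authors deposited FPKM per gene with gene lengths and coordinates on GRCm38 (mm10). The aligner is not given in the sources used here. FPKM multiplied by length and library divisor gave whole reads for 100% of values (tolerance 0.01), so the counts were recovered for depth and for a limma-voom fit.

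After genes under a mean of 0.2 FPKM were left out, 16123 remained, and limma 3.58.1 (R 4.3.3) was run on their log2(FPKM + 0.1), with a trended prior variance and all 9 libraries, two-sided, after a test on simulated data. This replaced the count test of the authors, since FPKM is the deposited unit. The recovered counts were used for the limma-voom fit, which was an alternative. Intervals of a difference are 95% intervals of the limma fit. Python 3.11.15 with pandas 2.3.3 was used for the rest.

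The genes and lists were chosen with earlier results of these data known. The rule for naming other genes took, per role list, the 2 largest absolute changes in OGD against control and in OGD + A-485 against OGD at a mean of at least 1 FPKM, and some genes it selects are not reported here. The labels do not say whether libraries of the same replicate number belong together, and the main fit did not pair them. Alternatives covered the pseudocount, filter, scaling, prior, samples fitted, call rule, replicate block, neighbouring genes and leaving out each library.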

Additional observations from a re-analysis of the deposited data

How the results depend on the processing

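Most member values kept their direction and call, as 542 of the member values under an alternative did, while 11 passed the call limits anew, 4 lost them and 10 changed sign. No sign change touched a called value. With the median of 50 neighbouring genes removed, Fabp4 in OGD + A-485 against OGD was -0.061 and Fabp5 in OGD + A-485 against control -0.18. Quantile normalization gave -0.10 for that value of Fabp5, -0.11 for Hilpda in OGD + A-485 against OGD and 0.026 for Pnpla2 in OGD against control, and scaling to library totals gave -0.058 for both Fabp5 and Hilpda. Leaving out each library in turn gave -0.050 to 0.048 for Hilpda and -0.048 to 0.027 for Pnpla2 in the same comparisons.

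The number of members called lower became 1 in OGD against control, 1 in OGD + A-485 against OGD and 2 in OGD + A-485 against control without the neighbouring median. It became 1, 0 and 2 on library totals, where calls lower over all tested genes went from 1581, 2165 and 2684 to 1866, 2474 and 3350 (without the neighbouring median, to 1660, 2064 and 2656). Leaving out each library gave 0 to 1 in OGD against control. Lipa was the gene called lower in that comparison under each of these alternatives that called 1. Same-numbered libraries of different groups did not deviate together (mean correlation -0.0023, and 4 of 9 libraries closest to their own number), and the replicate block left these counts at 0, 0 and 1 and changed no member call. Pseudocount 1 gave 9 other lipid genes called higher in OGD, from 14, while calls higher over all tested genes went from 1803 to 1427. The cause was not tested.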
